A study of Homo sapiens with 6 samples.

Results

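ISG15 and PARP10 are both genes that type I interferon is known to induce, and they were examined in Rh30 cells that expressed pannexin 1 (PANX1) or only the control vector. They were picked by name, as 2 of the 1273 genes in a table of FPKM, a count of sequenced fragments scaled to transcript length and library size. How the library size was set is not given in the sources used here. The table lists genes that the authors had called changed on these same libraries, so the difference between the groups chose the members and is described here without a test. Rh30 is an established cell line from an alveolar rhabdomyosarcoma, a childhood tumor with features of developing skeletal muscle. The 6 libraries came from 3 GFP control cultures and 3 PANX1 cultures, which the authors describe as biological replicates. All 6 cultures stably carried the CymR repressor and a lentiviral vector that makes GFP at all times, were kept in geneticin and puromycin, and were treated over 48 h with cumate at a dose of 30 µg/mL. Cumate lifts the repressor from the inserted gene, so only the PANX1 cultures gained PANX1. Whether each stable line was a single clone or a mixed population was not given in the sources used here, and the untreated parental line was not analysed here.

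Interferons are secreted proteins that cells release on sensing foreign nucleic acid. Their receptors signal through JAK kinases to transcription factors that bind a short DNA element, the interferon-stimulated response element, in front of the responding genes. ISG15 encodes a small protein built of tandem ubiquitin-like domains. It is attached to other proteins much as ubiquitin is, by the enzymes UBA7, UBE2L6 and HERC5, and USP18 takes it off again. PARP10 encodes an enzyme that transfers a single ADP-ribose unit from NAD+ to proteins, and it was first described as a partner of the MYC protein. Nearly all cell types, muscle and its tumors included, carry the receptor for type I interferon.

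The promoter of ISG15 is shown because it holds matches to the core of the response element. It covers 250 bases before to 50 bases after the gene's start in RefSeq (GRCh38.p14, chr1:1013247-1013546, plus strand), and capitals mark the response element core, which is GAAA, any 2 bases and GAAA again, and which was found at 2 overlapping places.
ISG15: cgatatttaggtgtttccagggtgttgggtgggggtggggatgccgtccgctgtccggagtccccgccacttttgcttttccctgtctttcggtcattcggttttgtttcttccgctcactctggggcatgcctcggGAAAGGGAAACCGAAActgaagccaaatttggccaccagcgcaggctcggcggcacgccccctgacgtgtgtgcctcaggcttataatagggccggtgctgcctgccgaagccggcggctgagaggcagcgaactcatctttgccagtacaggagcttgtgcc
The core was searched on both strands, and its matches in ISG15 began at -113 and -107 relative to the start. Of the 27305 genes with a RefSeq promoter of this length, 4.38% held it, and of the 939 genes of the table with such a promoter, 3.51% did. In a list of 41 classical interferon-stimulated genes, 24 of the 33 with a promoter held it. Of the 16 other listed genes of the table, 10 had such a promoter, and only 4 of these held the core. The stretches around the core in these 4 are set beside that of ISG15, 30 bases each, read in the direction of the gene.
ISG15: tcgggaaaggGAAACCGAAActgaagccaa
IFITM3: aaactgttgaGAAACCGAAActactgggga
LGALS3BP: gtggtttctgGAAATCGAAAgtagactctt
ISG20: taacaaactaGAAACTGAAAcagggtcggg
PSMB10: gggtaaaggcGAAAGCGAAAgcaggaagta
In this order, the core shown began at -107, -35, -58, -69 and -21 relative to the gene's start. A match is a description of the letters in this window, and no promoter sequence was used for PARP10.

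PANX1 itself, the induced gene, had 37.8, 35.3 and 28.1 FPKM in GFP replicates 1, 2 and 3 and 124, 184 and 123 FPKM in PANX1 replicates 1, 2 and 3, so the libraries matched their labels. Of the 11 markers fixed for alveolar rhabdomyosarcoma and muscle, the table held DES, which encodes desmin, and FGFR4. DES had a mean of 282 FPKM in GFP and 461 FPKM in PANX1 cells. CD68, a macrophage marker, was the only one of 7 markers of other cell types in the table, and its mean was 0.697 FPKM in GFP and 1.96 FPKM in PANX1 cells. The part of such cells in the results was not tested, and the remaining markers were not analysed here. PANX1 replicate 3 stood apart from the other libraries. Its FPKM exceeded those of both other PANX1 libraries in 85.0% of the entries, and the median log2 ratio to the mean GFP value was 1.87 in replicate 3 against 0.77 and 0.61 in replicates 1 and 2. Log2 ratios of mean FPKM are therefore given with and without it.

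ISG15 is listed as XLOC_000009 on chromosome 1 of hg19, from 948847 to 949919 on the plus strand. The window spans 1073 bases, and the main transcript has 2 exons. Its level was 0.308 FPKM in GFP replicate 1, 0.457 FPKM in replicate 2 and 1.11 FPKM in replicate 3. In PANX1 replicates 1, 2 and 3 it was 1.79, 1.48 and 7.96 FPKM. All PANX1 libraries lay above all GFP libraries, but the lowest PANX1 value was only 1.33 times the highest GFP value. The mean was 0.627 ± 0.429 FPKM (SD, n = 3) in GFP and 3.74 ± 3.65 FPKM (SD, n = 3) under PANX1, which is a ratio of 5.97 and a log2 ratio of 2.58. Without PANX1 replicate 3 the PANX1 mean was 1.63 ± 0.219 FPKM (SD, n = 2), and the ratio to the GFP mean was 2.60, a log2 ratio of 1.38. GFP replicate 3 also stood out among the controls, at 2.91 times the mean of the other 2, and without it the log2 ratio was 3.29. More cells that make a transcript and more of it per cell cannot be told apart in bulk libraries such as these.

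PARP10 is listed as XLOC_022233 on chromosome 8 of hg19, from 145051320 to 145060635 on the minus strand, and its main transcript has 11 exons. It was the scarcer of the genes in every library. Its level was 0.153, 0.184 and 0.314 FPKM in GFP replicates 1, 2 and 3, and 0.887, 0.764 and 4.29 FPKM in PANX1 replicates 1, 2 and 3. Here the groups stood well apart, since the lowest PANX1 value was 2.43 times the highest GFP value. The mean was 0.217 ± 0.0851 FPKM (SD, n = 3) in GFP and 1.98 ± 2.00 FPKM (SD, n = 3) under PANX1, which is a ratio of 9.12 and a log2 ratio of 3.19. Without PANX1 replicate 3 the PANX1 mean was 0.825 ± 0.0875 FPKM (SD, n = 2) and the ratio 3.80, a log2 ratio of 1.93. The PANX1 means of both genes thus rested mostly on replicate 3, while the other 2 PANX1 libraries were close to each other and above every control.

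**Figure D1:**
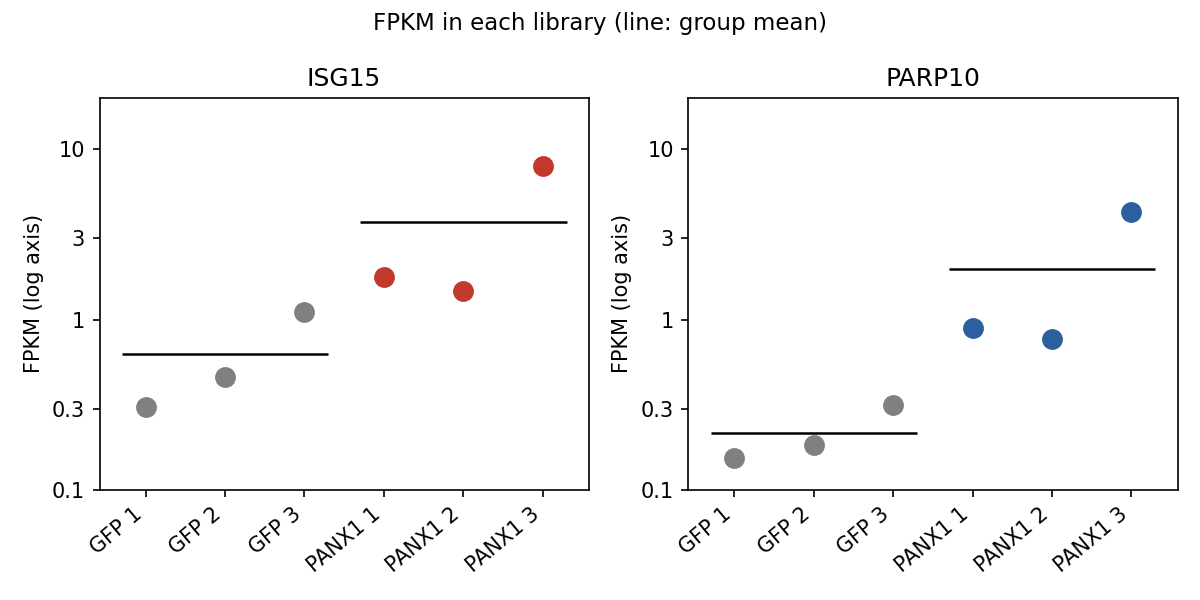
FPKM of ISG15 and PARP10 in each library on a log axis, with GFP libraries in gray, PANX1 libraries in color and a line at each group mean. PANX1 replicate 3 is the highest point for both genes, and the gap between the groups is narrow for ISG15 (1.11 against 1.48 FPKM) and wider for PARP10 (0.314 against 0.764 FPKM).

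Groups without overlap were common in this table, so they do not set the members apart: 82% of all entries were higher in PANX1 cells with no overlap and 11.9% lower, 87% had a log2 ratio of means above 0, and 72% had one above 1. Both members had a log2 ratio above 1 also without PANX1 replicate 3, as did 18.9% of entries. A log2 ratio above 1 in each of the 3 PANX1 libraries, which ISG15 and PARP10 both had, was found in 10.7% of entries. Among the 1268 entries with any GFP signal, PARP10 ranked 6 and ISG15 ranked 26 by the log2 ratio of means, and they ranked 20 and 71 without PANX1 replicate 3. Library by library, PARP10 was above 98.7%, 98.0% and 99.3% of the table in PANX1 replicates 1, 2 and 3, and ISG15 was above 92.1% to 98.2%, least in replicate 2. By the gap between the lowest PANX1 and the highest GFP value, PARP10 ranked 19, whereas ISG15 ranked 561.

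**Figure D2:**
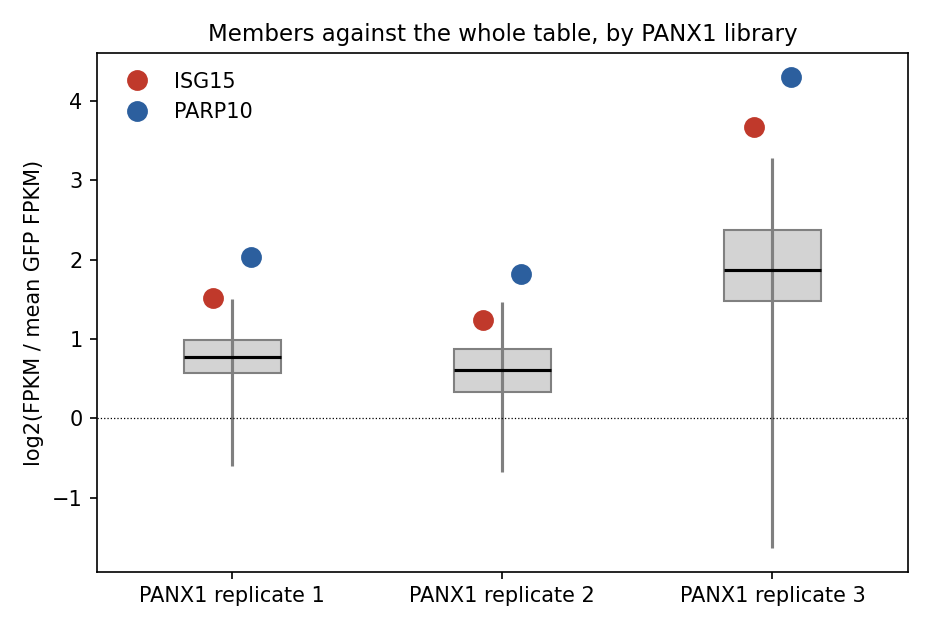
Log2 ratio of each PANX1 library to the mean GFP FPKM. Gray boxes span the 25th to 75th percentile of the table with a line at the median, whiskers reach the 5th and 95th percentile, and points are ISG15 and PARP10, which lie above the box in every library.

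The proportion of the genes to each other ranged from 1.86 to 3.55 over the libraries. FPKM is scaled for transcript length, so the levels can be compared. ISG15 was at 2.01, 2.48 and 3.55 times the PARP10 level in GFP replicates 1, 2 and 3 and at 2.01, 1.93 and 1.86 times in PANX1 replicates 1, 2 and 3. The proportion was thus almost the same in the 3 PANX1 libraries and varied more among the controls, with GFP replicate 3 the highest. Both genes had their highest value of each group in replicate 3, as did 49.4% of the table. Neither followed the PANX1 transcript across the induced cultures, since PANX1 replicate 2 had the most PANX1 and the least ISG15 and PARP10. This order of libraries does not set the members apart. Over the table, PANX1 replicate 2 was above replicate 1 in only 31.0% of entries, and replicate 3 was the highest PANX1 library in 85.0%.

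Both were at the bottom of the table by level. In GFP cells ISG15 was above 10.8% of the entries by mean FPKM and PARP10 above 4.24%, and in PANX1 cells they were above 20.4% and 11.9%. Multiplying FPKM by the length of the main transcript, 0.637 kb for ISG15 and 3.505 kb for PARP10, gives fragments relative to library size. These are scaled values, as FPKM is, and not the number of fragments sequenced. On this scale ISG15 was at 0.196 to 0.71 in the GFP libraries and at 0.941 to 5.07 in the PANX1 libraries. For the longer PARP10 the values were 0.537 to 1.10 and 2.68 to 15.0. The ISG15 control values reached the lowest level of the 4 sets. The study's methods state the reads sequenced per library but not the fragments mapped to genes, so no counting interval was computed.

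PANX1 replicate 3 was 4.87 times the mean of replicates 1 and 2 for ISG15 and 5.20 times for PARP10, against a median of 2.24 over the table. By this ratio PARP10 ranked 28 and ISG15 44 of 1268. The transcripts of both genes are rich in G and C, 64.2% for ISG15 and 66.8% for PARP10, where the median was 61.3% in the table and 49.1% for annotated protein-coding genes. Over the 1182 genes with a GC value, the ratio of replicate 3 to replicates 1 and 2 was larger at higher GC content (Spearman's rho 0.67, across genes of the same libraries, as a description). With each library's slope on GC content removed, a step chosen with earlier results known, the levels of ISG15 were 0.50, 0.65 and 1.59 in GFP and 1.56, 1.45 and 2.83 in PANX1 replicates 1, 2 and 3. The groups then overlapped, and the log2 ratio was 1.09, and 0.72 without PANX1 replicate 3. For PARP10 the corrected levels were 0.271, 0.278 and 0.475 in GFP and 0.754, 0.748 and 1.28 in PANX1 cells, which did not overlap, with a log2 ratio of 1.44, and 1.14 without PANX1 replicate 3. By these ratios PARP10 ranked 34 and ISG15 61 of 1182 genes. The part of GC content in the difference between the groups was not tested.

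**Figure D3:**
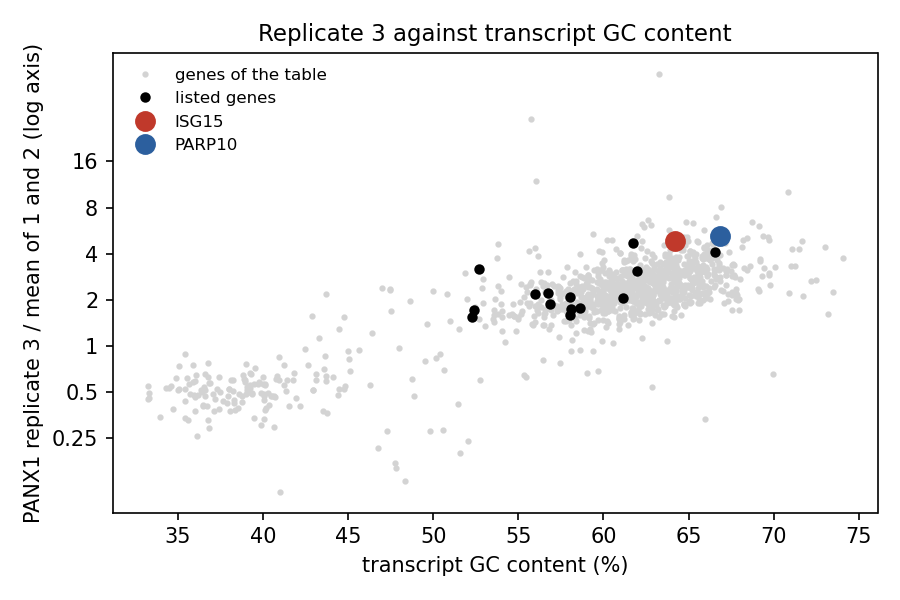
Ratio of PANX1 replicate 3 to the mean of replicates 1 and 2 (log axis) against transcript GC content, with each gene of the table as a gray dot, 14 of the 16 listed genes in black and ISG15 and PARP10 in color. Both members lie in the upper part of the cloud at high GC content, at ratios of 4.87 and 5.20.

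Scaling the libraries to each other by the median of ratios over the table, which takes most genes of the table as unchanged, moved the median log2 ratio of all entries from 1.23 to 0.041. The authors had called every entry changed, and 87% had a log2 ratio of means above 0, so this premise may not hold here. A median near 0 follows from the scaling itself. On that scale ISG15 was at 0.50, 0.646 and 1.49 in GFP and at 1.53, 1.43 and 3.15 in PANX1 replicates 1, 2 and 3, so that PANX1 replicate 2 lay just under GFP replicate 3. Its log2 ratio was 1.22, and 0.75 without PANX1 replicate 3. PARP10 was at 0.249, 0.26 and 0.418 in GFP and at 0.761, 0.737 and 1.7005 in PANX1 cells, still without overlap, and its log2 ratio was 1.79, and 1.28 without PANX1 replicate 3. PARP10 was thus higher than the table's median by every scaling tried, with its groups apart, whereas the separation of the ISG15 groups depended on the scaling. By these ratios PARP10 ranked 8 and ISG15 31 of 1268. On this scale 54.7% of the entries were higher in PANX1 cells.

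The other interferon genes of the table were higher in PANX1 cells, and with all libraries their ratios were smaller than that of ISG15. The lists hold 98 genes of ISG15 conjugation, interferon response, antigen presentation, interferon signaling, sensing of nucleic acids and the interferons themselves, and 11 (11.2%) were among the entries, as were 5.81% of all protein-coding genes. The other genes of the lists, among them all 6 interferons, were not analysed here. The mean FPKM of all 11 was larger under PANX1, as was that of 87% of the table. Their median log2 ratio was 1.22, and 0.91 without PANX1 replicate 3, where the table's medians were 1.23 and 0.70. The PANX1 values were higher and fully apart from the GFP values in 10 of the 11, as they were in 82% of the table. By limma on log2(FPKM + 1) with Benjamini-Hochberg adjustment over the table, 7 of the 11 were higher at an adjusted p under 0.05 and 0 were lower, where 33.5% of the table was called higher and 0.707% lower. The table was itself picked by a test on these libraries, so these calls are no independent evidence. These calls depended on single libraries, among the 16 listed genes as among all 1273 genes. With all libraries 8 of the 16 were called, and 435 of all genes. Without GFP replicate 1, 2 or 3, 0 of the 16 were called, and 9, 14 and 51 of all genes. Without PANX1 replicate 3, 15 of the 16 were called, and 1140 of all genes. Median-of-ratios scaling left 0 calls by limma, with 0 of the 16 higher at an unadjusted p under 0.05. None of the 11 had a log2 ratio of mean FPKM above that of ISG15 with all libraries, but ISG20 did without PANX1 replicate 3, and ISG20 and UBA7 did after the GC correction. After median-of-ratios scaling 9 of the 11 were higher, except LGALS3BP and IKBKE, where 54.7% of the table was. The median log2 ratio of the 11 was then 0.18, where that of the table was 0.041. After the GC correction the median of the 11 was 0.49, where that of the table was 0.20.

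Of the 6 genes that attach or remove ISG15, the table held the activating enzyme UBA7, in an entry shared with the microRNA gene MIR5193. It had 0.394, 0.263 and 0.289 FPKM in GFP replicates 1, 2 and 3 against 0.59, 0.973 and 1.697 FPKM with PANX1, a log2 ratio of 1.78, and 1.31 without PANX1 replicate 3. After the GC correction its log2 ratio was 1.18, against 1.09 for ISG15. Of the 41 classical genes, 4 were listed. ISG20, an exonuclease that degrades RNA, was the scarcest, with 0.152, 0.135 and 0.0547 FPKM in GFP and 0.191, 0.504 and 1.11 FPKM in PANX1 cells, a log2 ratio of 2.40. Without PANX1 replicate 3 its log2 ratio was 1.61, above that of ISG15 (1.38) and below that of PARP10 (1.93). After the GC correction it was 2.04, above both members (1.09 and 1.44). The abundant antiviral membrane proteins IFITM2 and IFITM3 had log2 ratios of 1.29 and 1.14 (0.92 and 0.82 without PANX1 replicate 3), and as their sequences are alike, reads may have been split between them. IFITM3 had 49.8, 71.6 and 95.5 FPKM in GFP and 108, 147 and 222 FPKM in PANX1 cells. LGALS3BP, a secreted glycoprotein, had a log2 ratio of 1.07, and 0.64 without PANX1 replicate 3.

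IRF7, the transcription factor that drives type I interferon genes, was the single entry of 19 for interferon signaling. Its values of 0.165, 0.176 and 0.315 FPKM in GFP and 0.448, 0.412 and 1.78 FPKM in PANX1 cells ran close to those of PARP10 in the control libraries and below them in the induced ones. Its log2 ratio was 2.01, and 0.98 without PANX1 replicate 3. For antigen presentation, 4 of 13 genes were listed. PSMB10, a subunit of the immunoproteasome, had a log2 ratio of 1.94 (0.78 without PANX1 replicate 3) with overlapping groups, as PANX1 replicate 2 (1.801 FPKM) lay under GFP replicate 2 (1.83 FPKM). PSMB9, another immunoproteasome subunit, and NLRC5, the activator of class I genes, had log2 ratios of 1.10 and 1.17 (0.80 and 0.91 without that library). The kinase IKBKE, which acts below the sensors of nucleic acids, had a log2 ratio of 1.12, and 0.78 without PANX1 replicate 3.

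PANX1 replicate 1 was above replicate 2 in ISG15 and PARP10, and replicate 2 was above replicate 1 in 7 of the 11 listed genes, among them UBA7, IFITM2, IFITM3, LGALS3BP, ISG20 and PSMB9. In IRF7, PSMB10, NLRC5 and IKBKE replicate 1 was above replicate 2, as in the members. Over the whole table replicate 2 was above replicate 1 in 31.0% of entries. Replicate 3 was the highest in 10 of the 11, and in 85.0% of the table. None of the 11 had a ratio of replicate 3 to replicates 1 and 2 above that of ISG15, and 1 of them, IRF7, had a higher GC content than ISG15.

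**Figure D4:**
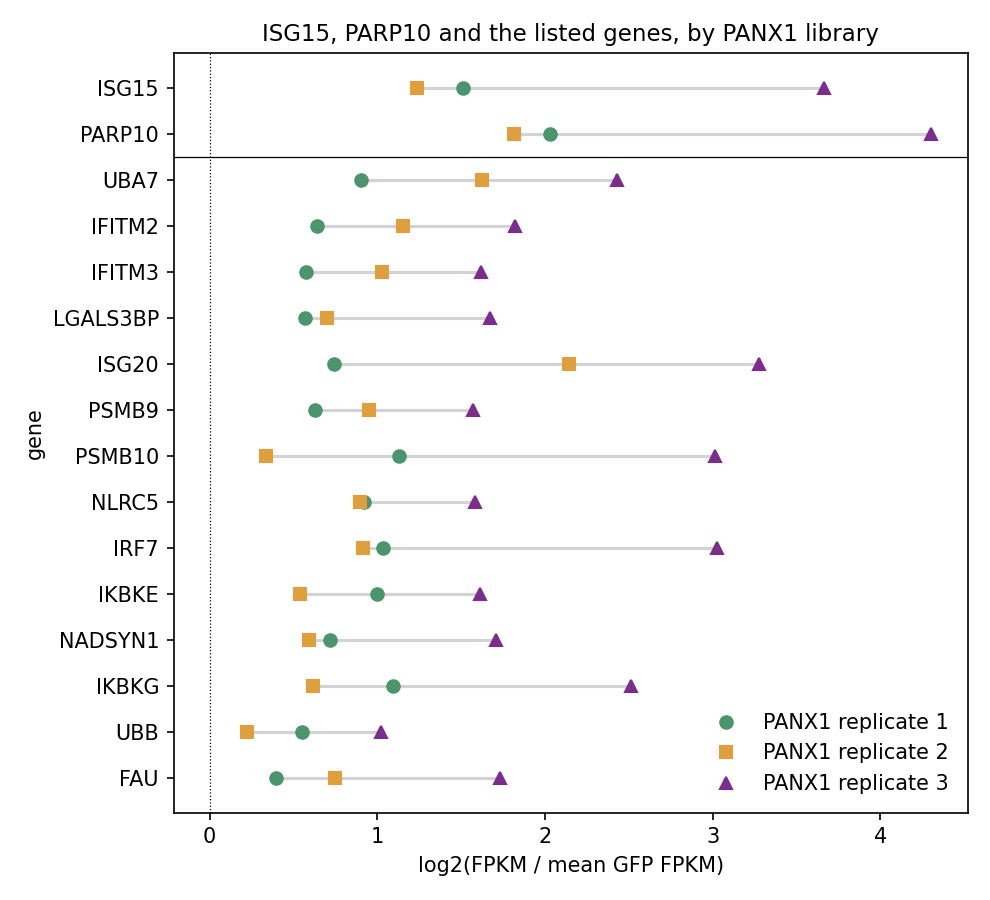
Log2 ratio of each PANX1 library to the mean GFP FPKM for ISG15 and PARP10 (top) and 14 of the 16 listed genes in the table, with a symbol for each replicate. Replicate 3 is the rightmost symbol for every gene drawn, and ISG15 and PARP10 reach 3.67 and 4.30 there.

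Around PARP10, the lists hold 22 genes of the wider PARP family and of the enzymes that remove ADP-ribose, and 0 of them were among the entries. Of 8 genes that make NAD+, the substrate of PARP10, the table held NADSYN1, the NAD synthetase, with a mean of 11.9 ± 0.358 FPKM (SD, n = 3) in GFP and 25.4 ± 11.7 FPKM (SD, n = 3) in PANX1 cells and a log2 ratio of 1.10 (0.65 without PANX1 replicate 3). Of 5 known partners or substrates of PARP10, it held IKBKG, the regulatory subunit of the IKK complex, with a log2 ratio of 1.64 (0.87 without that library). Of 13 ubiquitin-like genes, relatives of ISG15, it held 3, among them UBB and FAU, with log2 ratios of 0.63 and 1.07 (0.40 and 0.58 without it). After median-of-ratios scaling NADSYN1, UBB and FAU were lower and IKBKG stayed higher, at a log2 ratio of 0.37. After the GC correction NADSYN1, UBB, FAU and IKBKG were at 0.33, 0.37, 0.41 and 0.47, where the table's median was 0.20. ISG15 and PARP10 had larger log2 ratios of mean FPKM than any of these genes, with and without PANX1 replicate 3.

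The genes next to ISG15 and PARP10 were often in the table as well. Within 500 kb of ISG15, 10 of 34 annotated protein-coding genes matched an entry (29.4%), and within 500 kb of PARP10 13 of 41 did (31.7%), whereas 5.81% of all 20149 protein-coding genes did. No other annotated gene overlaps the window of either member. The 11 entries near ISG15 had log2 ratios between 0.99 and 2.21 with a median of 1.67, and the 16 near PARP10 between 1.03 and 2.22 with a median of 1.58. Without PANX1 replicate 3 these medians were 0.68 and 0.86, where that of the table was 0.70. No neighbor exceeded its member, with or without PANX1 replicate 3. The closest entry to ISG15, AGRN, which encodes the basement membrane protein agrin, began 5.58 kb after it and had 3.99, 3.95 and 5.21 FPKM in GFP and 5.99, 8.02 and 15.8 FPKM in PANX1 cells, a log2 ratio of 1.18 (0.68 without PANX1 replicate 3). PLEC, which encodes the cytoskeletal linker plectin, ended 0.407 kb before PARP10. It had 3.87, 4.01 and 3.88 FPKM in GFP and 8.17, 6.66 and 23.6 FPKM in PANX1 cells, a log2 ratio of 1.71 (0.92 without it). GRINA, on the other side of PARP10, had a log2 ratio of 1.10 (0.69 without it). PANX1 replicate 3 had the highest PANX1 value in all 27 neighbors, 11 of ISG15 and 16 of PARP10, and in 85.0% of the table. After median-of-ratios scaling 8 of the 11 and 13 of the 16 were higher in PANX1 cells, where 54.7% of the table was. Their medians were then 0.31 and 0.29, where that of the table was 0.041, and none exceeded its member. After the GC correction the medians were 0.19 near ISG15 and 0.25 near PARP10, close to the table's 0.20, and again none exceeded its member.

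**Figure D5:**
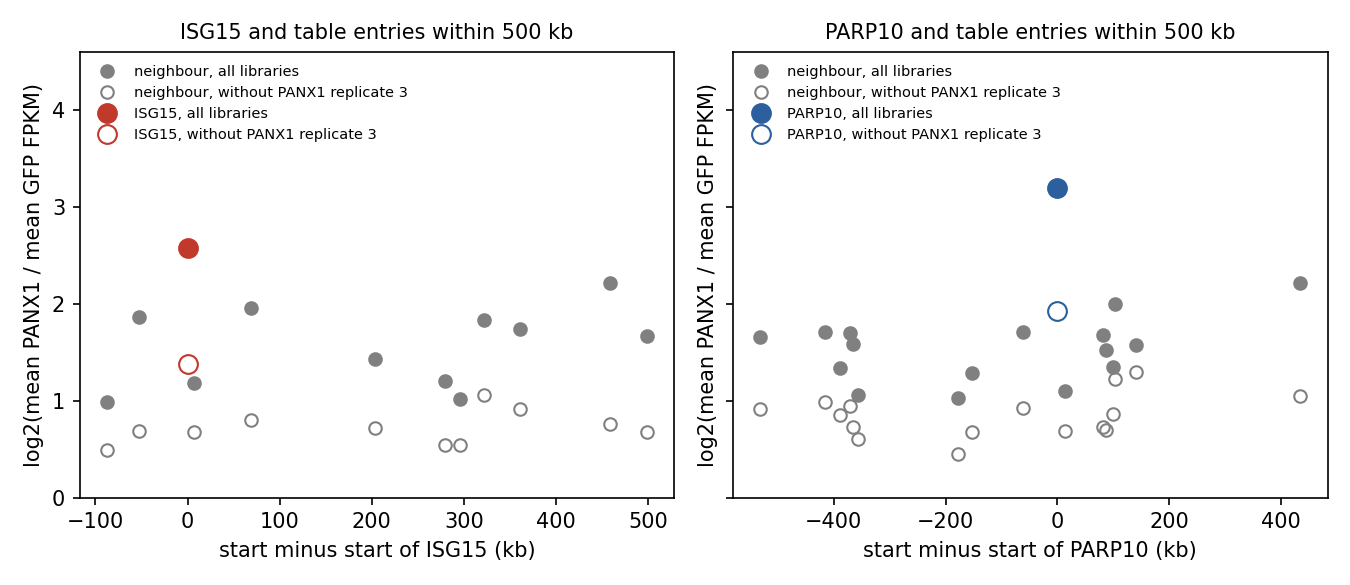
Log2 ratio of mean FPKM for ISG15 (left) and PARP10 (right) and the table entries within 500 kb, against the distance between starts in kb, with filled points for all libraries and open points without PANX1 replicate 3. Each member is the highest point of its kind in its panel.

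The pattern over the 6 libraries was shared by much of the table. Pearson's r of log2(FPKM + 1) between ISG15 and PARP10 was 0.99 over 6 libraries, and r with ISG15 was above 0.9 in 963 of the 1160 other genes with a mean of at least 1 FPKM. The 5 genes most like ISG15 were TMED1, POLD2, PEX14, APRT and CD81, and the 5 most like PARP10 were NDUFS7, COX8A, FASN, PNPLA6 and KIFC3, with r of 0.998 for those of ISG15 and at most 0.999 for those of PARP10. NDUFS7, a subunit of mitochondrial complex I, came nearest to PARP10 in size, with 0.907, 0.991 and 1.31 FPKM in GFP and 3.74, 2.80 and 26.3 FPKM in PANX1 cells. With a pseudocount of 0.1 in place of 1, 0 of the 5 remained for either gene, so these names depend on how low values are treated. The libraries and their depth are shared by all these genes.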

How the data were processed

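RNA from 3 GFP and 3 PANX1 cultures was sequenced from poly(A)-selected libraries. The authors trimmed reads with cutadapt 1.7.1, used TopHat 2.0.13, with Bowtie 2.2.3 beneath it, for alignment to hg19, and took FPKM from Cufflinks 2.2.1. The deposited FPKM are scaled for library size and transcript length, and cover only genes the authors had called. How Cufflinks set the library size is not given in the sources used here. The files hold no counts, so no count test was run. The study's methods state reads sequenced per library, but the fragments behind each value are not given. Loci in the table count from 0, and 1 was added to each start.

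The members and the gene lists were chosen with earlier results of these data known. Named genes are ISG15, PARP10, PANX1, listed genes in the table, the 5 most correlated genes and entries within 500 kb. Some listed genes are counted but not reported by name here. Log2 ratios are of mean FPKM without a pseudocount. Background and list calls used limma 3.58.1 in R 4.3.3 (eBayes with a trend, log2(FPKM + 1), Benjamini-Hochberg over 1273 genes, threshold 0.05, no block), checked on simulated data. On this scale the change of low genes is understated. GC content and length came from the MANE Select or else the longest coding transcript of GENCODE v44lift37, and matched 1186 genes. For the GC correction, each gene's mean log2 value over the libraries was first subtracted. A line of these deviations on GC content, relative to 49.1%, was then fitted per library and its slope removed. The correction also removes true differences that follow GC content. RefSeq promoters are on GRCh38.p14, and no coordinates were moved between builds. Alternatives were other pseudocounts, a minimum mean FPKM of 1, eBayes without a trend, a replicate block, median-of-ratios scaling, GC correction, medians, geometric means and each library left out. Summaries used Python 3.11.15, pandas 2.3.3, numpy 2.4.6 and matplotlib 3.10.9.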

Additional observations from a re-analysis of the deposited data

How the results depend on the processing

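The log2 ratio of ISG15 (2.58) and of PARP10 (3.19) stayed above 0 in every alternative run. Median-of-ratios scaling gave 1.22 and 1.79 and the GC correction 1.09 and 1.44, and a pseudocount of 1 added to the group means gave 1.29 for PARP10. With each library left out in turn the ratio ran from 1.38 to 3.29 for ISG15 and from 1.93 to 3.58 for PARP10, lowest without PANX1 replicate 3 in both. Limma called 435 genes of the table and 8 of the 16 listed genes. With a minimum mean FPKM of 1, 5 of the 13 listed genes left were called. Without a trend limma called 0 genes and 0 listed genes (770 higher and 54 lower at an unadjusted p under 0.05, with 10 listed genes), after median-of-ratios scaling 0 and 0 (145 and 171, with 0 listed genes), and after the GC correction 9 and 0 (6 listed genes at an unadjusted p under 0.05). With each library left out, the counts ran from 9 (without GFP replicate 1) to 1140 (without PANX1 replicate 3) in the table and from 0 (without GFP replicate 1, 2 or 3) to 15 (without PANX1 replicate 3) in the lists. The causes were not tested. With the title numbers as a replicate block limma called 614 genes and 11 listed genes. Same-numbered libraries deviated from their group means with correlations across genes of 0.42, -0.36 and 0.14, so the numbers were not treated as pairs. The sample descriptions number the PANX1 libraries differently from the titles, so this block may join libraries that do not belong together, and the methods speak of matching replicates without saying which match. Of the 5 genes most like ISG15, 1 remained by Spearman's rho and 0 with a pseudocount of 0.1, and for PARP10 0 and 0. FPKM without counts limit the precision of the low GFP values most.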
